A study of Homo sapiens with 6 samples.

Results

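The interleukin-1 (IL-1) family genes described here are 9 of the 21462 genes in the count table, taken by symbol. They are the ligands IL1A, IL1B, IL18, IL33 and IL36G, the receptor antagonist IL1RN, and the receptor chains IL1R1, IL1R2 and IL1RAP. RNA sequencing compared control A431 cells (A431CT, genotype WT) with A431 cells in which DSG2 was knocked out by CRISPR/Cas9 (Dsg2KO), with 3 libraries in each condition. A431 is a human keratinocyte-derived line from an epidermoid carcinoma, both lines were grown in DMEM with serum, and the labels name no cytokine or other stimulus for either. DSG2 encodes desmoglein-2, a cadherin of the desmosome. The sources used here do not say whether the Dsg2KO line is 1 clone, and the study calls the libraries biological replicates without describing the cultures behind each one.

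IL-1 family ligands are alarm cytokines of the epidermis. Keratinocytes store IL-1α (IL1A) and release it when damaged, whereas IL-1β (IL1B) and IL-18 are made as precursors that are cut by proteases such as caspase-1. IL-1α and IL-1β bind IL1R1, which then recruits the shared chain IL1RAP and signals through MyD88 and IRAK kinases to NF-κB and MAP kinases. IL1RN occupies IL1R1 without signaling, and IL1R2 is a decoy that binds ligand but lacks the signaling domain. IL1RAP is also the partner chain of the IL-36 receptor IL1RL2 and of the IL-33 receptor IL1RL1.

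The libraries held between 12845719 and 16255692 counts, and a floor of 3 counts corresponded to between 0.184 and 0.236 CPM (counts scaled to the TMM-adjusted library size; the floor covers counting error only). DSG2 fell from 323 ± 6.08 to 51.9 ± 2.88 CPM (SD, n = 3), so its label check held in 3 of 3 Dsg2KO libraries. Of 10 keratinocyte and epithelial markers 9 were tested, and KRT14 had at most 2 counts in any library. The summed level of these 10 markers was 11163 to 11773 CPM in A431CT and 12320 to 12698 CPM in Dsg2KO libraries, most of it EGFR, at 8451 and 9134 CPM on average. The leukocyte marker PTPRC lay between 0.134 and 0.590 CPM, and 4 of 10 leukocyte markers and 5 of 6 fibroblast markers were at or under the floor in every library. The leukocyte list summed to 541 to 572 CPM in A431CT and 496 to 516 CPM in Dsg2KO libraries, nearly all of it CSF1R, a receptor tyrosine kinase, at 552 and 502 CPM on average. CSF1R was lower past the test (log2 fold change -0.14, adjusted p = 0.0076, edgeR). LYZ and ITGAM were the only others tested (log2 fold changes of 0.66 and -0.18, neither past the test). Of the epithelial markers KRT8 (log2 fold change 0.31), KRT18 (0.35), CDH1 (0.28) and EGFR (0.11) were higher and KRT6A (-1.03) and KRT5 (-0.13) lower past the test. Endothelial markers summed to 8.45 to 11.3 CPM in A431CT and 15.1 to 15.7 CPM in Dsg2KO libraries, with CDH5 (0.76) and PECAM1 (0.54) higher and VWF (0.22) not past the test. Of 4 melanocyte markers, PMEL was tested (log2 fold change -0.02) and the others were at or under the floor. The part of these markers in the results below was not tested.

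Of the 9 members, 6 had enough counts to be tested and 3 did not. IL1A and IL1B fell by 14.3% and 20.5% and IL18 rose by 25.2% in Dsg2KO cells, and for these 3 genes no Dsg2KO library lay within the A431CT range. In bulk RNA, fewer cells that express a gene and less RNA per cell cannot be told apart. IL1RN, IL1R1 and IL1RAP overlapped between the conditions. A gene passed the test with an adjusted p-value under 0.05 (edgeR's quasi-likelihood test, Benjamini-Hochberg over all genes tested). By this test 3 of 6 members passed, against 29.6% of all genes tested, with 1 higher (14.3% of all genes) and 2 lower (15.3% of all genes). Libraries of the 2 conditions were fully separate for 3 of 6 members and for 42.6% of all genes, with 1 member higher (21.2% of all genes) and 2 lower (21.4%). With the study's minimum of 0.5 on the log2 scale added, 0 of 6 members passed, against 6.03% of all genes (2.99% higher and 3.03% lower). That number was also 0 with DESeq2, and of the members with an unadjusted p-value under 0.05, which were the same 3, none reached a log2 fold change of 0.5 in size. The median log2 fold change was -0.05 over the 6 tested members and -0.0048 over all genes tested.

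**Figure D1:**
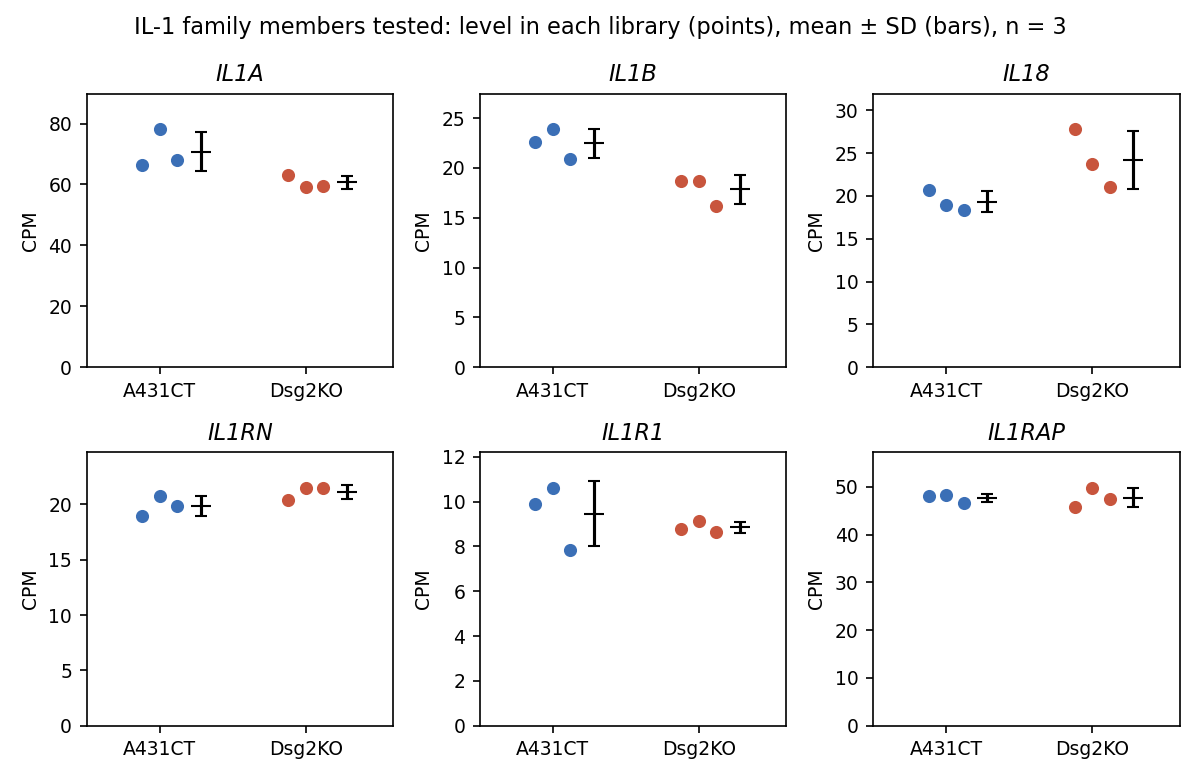
Each panel plots 1 tested member, with its level in CPM on the vertical axis (starting at 0), 1 point per library, and the mean with SD (n = 3) beside the points. The Dsg2KO points lie below all A431CT points for IL1A and IL1B and above them for IL18, and the conditions overlap for IL1RN, IL1R1 and IL1RAP.

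IL1A encodes IL-1α, the agonist that epithelial cells hold preformed. Its level was 66.3, 78.2 and 67.9 CPM in A431CT replicates 1, 2 and 3 and 63.1, 59.3 and 59.5 CPM in the Dsg2KO replicates. All Dsg2KO libraries lay below all A431CT libraries, and A431CT replicate 2 stood above the other A431CT libraries. The mean fell from 70.8 ± 6.43 to 60.6 ± 2.16 CPM (SD, n = 3). On the log2 scale the difference was -0.22 with a standard error of 0.06 (adjusted p = 0.0147, edgeR), and 3 of 3 Dsg2KO libraries were lower. The fall did not pass the test without A431CT replicate 2, where the log2 fold change was -0.15 (adjusted p = 0.0801, edgeR), or without Dsg2KO replicate 2, where it was -0.21 (adjusted p = 0.0582, edgeR). Over all alternatives the adjusted p-value was between 0.0048 and 0.0801.

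IL1B encodes IL-1β, the inflammasome-processed agonist. Its level was 22.6, 23.9 and 20.9 CPM in the A431CT replicates and 18.7, 18.7 and 16.2 CPM in the Dsg2KO replicates. The conditions did not overlap, and the gap between the nearest libraries was wider than the SD of either condition. The mean fell from 22.5 ± 1.48 to 17.9 ± 1.44 CPM (SD, n = 3). This was -0.33 on the log2 scale with a standard error of 0.09 (adjusted p = 0.0124, edgeR), and 3 of 3 libraries were lower. It did not pass the test without A431CT replicate 2 (log2 fold change -0.28, adjusted p = 0.0515, edgeR) or without Dsg2KO replicate 3 (log2 fold change -0.27, adjusted p = 0.06, edgeR). The adjusted p-value lay between 0.0044 and 0.06 over all alternatives. The ratio of IL1A to IL1B counts within a library was 3.15 ± 0.186 in A431CT and 3.41 ± 0.251 in Dsg2KO cells (SD, n = 3). The ratios of the 2 conditions overlapped (exact two-sided permutation p = 0.3, where 3 against 3 libraries allow no p below 0.1).

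IL1A and IL1B are neighbours on chromosome 2 of GRCh38, both on the minus strand, at chr2:112773925-112784493 and chr2:112829751-112836816. No other gene of GENCODE version 44 overlaps either. The bases before their starts are shown because these are the members that fell together and their promoters are classical targets of inflammatory transcription factors. The sequences come from RefSeq (GRCh38.p14, minus strand, read 5′ to 3′), end just before the start in GENCODE, and cover chr2:112784494-112784743 for IL1A and chr2:112836817-112837029 for IL1B. Capitals mark matches to the letters of an AP-1 site (TGANTCA) or a C/EBP site (TTGCNNAA).
IL1A: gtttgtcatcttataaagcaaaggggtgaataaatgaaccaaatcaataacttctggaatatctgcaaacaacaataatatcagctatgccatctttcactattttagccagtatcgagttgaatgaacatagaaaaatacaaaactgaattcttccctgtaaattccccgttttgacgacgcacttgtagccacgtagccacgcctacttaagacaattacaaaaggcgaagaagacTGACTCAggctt
IL1B: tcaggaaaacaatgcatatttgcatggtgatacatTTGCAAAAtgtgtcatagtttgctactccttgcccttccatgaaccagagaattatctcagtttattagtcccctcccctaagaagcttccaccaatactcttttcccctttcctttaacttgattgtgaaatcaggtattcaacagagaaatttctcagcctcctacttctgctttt
The search covered both strands of the 250 bases before each RefSeq start. IL1A has a further RefSeq start downstream, whose window holds the same AP-1 letters and another match. AP-1 letters were found in 6.57% and C/EBP letters in 9.05% of all 35116 such windows. The consensus of NF-κB, searched by its name alone, was in 5.21% of windows and in no IL1A or IL1B window. Letters of an interferon-stimulated response element (ISRE) were also searched, and were in 3.02% of windows and in no IL1A or IL1B window. Before 1 of the IL1RN starts AP-1 letters were found. ISRE letters were found before other IL1RN starts, in overlapping windows. They are the same bases in both windows, from position -122 relative to the upstream-lying start's window and -231 relative to the other. These matches describe letters only, and no match in a window says nothing of binding elsewhere. IL18 has no entry in the promoter table.

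IL18 encodes IL-18, a precursor cytokine that keratinocytes make without stimulation and that drives interferon γ production by lymphocytes. Its level was 20.7, 18.9 and 18.3 CPM in the A431CT replicates and 27.8, 23.7 and 21.1 CPM in the Dsg2KO replicates. The conditions did not overlap, but Dsg2KO replicate 3 lay only just above A431CT replicate 1, and the Dsg2KO libraries spread more widely. The mean rose from 19.3 ± 1.23 to 24.2 ± 3.38 CPM (SD, n = 3), a ratio of 1.25. This was 0.32 on the log2 scale with a standard error of 0.10 (adjusted p = 0.0265, edgeR), and 3 of 3 libraries were higher. Of the 3 changed members IL18 lost its call most often when a library was left out. It did not pass the test without A431CT replicate 2 (0.31, adjusted p = 0.0606, edgeR), A431CT replicate 3 (0.29, adjusted p = 0.0836, edgeR), Dsg2KO replicate 1 (0.21, adjusted p = 0.139, edgeR) or Dsg2KO replicate 2 (0.34, adjusted p = 0.0523, edgeR), and its adjusted p-value ranged from 0.0077 to 0.139 over the alternatives. IL18 lies at chr11:112143253-112164096 on the minus strand and is overlapped on the plus strand by the protein-coding gene ENSG00000255292. Whether reads were counted by strand is not given in the sources used here, so reads of that gene and of IL18 cannot be told apart.

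IL1RN encodes the receptor antagonist, which keratinocytes make mainly as an intracellular form from an alternative first exon. The counts are per gene and pool its forms. Its level was 19.0, 20.8 and 19.8 CPM in the A431CT replicates and 20.4, 21.5 and 21.5 CPM in the Dsg2KO replicates. A431CT replicate 2 lay above Dsg2KO replicate 1, so the conditions overlapped. The log2 fold change was 0.09, with a 95% interval of -0.08 to 0.26 (adjusted p = 0.458, edgeR), and the test did not pass. A rise of more than 0.26 or a fall of more than 0.08 on the log2 scale lay outside this interval.

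The balance of antagonist to agonists was read from the counts within each library, which needs no scaling between libraries. The ratio of IL1RN counts to the sum of IL1A and IL1B counts was 0.213, 0.204 and 0.223 in the A431CT replicates and 0.249, 0.276 and 0.284 in the Dsg2KO replicates. Every Dsg2KO library had a higher ratio than every A431CT library. The mean was 0.213 ± 0.0098 in A431CT and 0.270 ± 0.0182 in Dsg2KO cells (SD, n = 3), a ratio 1.26 times as high. The difference of 0.34 on the log2 scale had an exact two-sided permutation p of 0.1, which is the smallest that 3 against 3 libraries allow. With each library left out in turn the difference stayed between 0.30 and 0.39. IL1A makes up most of the agonist counts, and IL1A and IL1B fell while IL1RN did not pass the test, so this ratio restates those members on another scale.

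The remaining ligands were close to absent. IL33 encodes a nuclear alarmin of barrier epithelia and IL36G encodes IL-36γ, a cytokine of activated keratinocytes. IL33 had 4, 1 and 0 counts in the A431CT and 0, 1 and 1 counts in the Dsg2KO replicates. IL36G had 1, 4 and 5 counts in the A431CT and 2, 2 and 0 counts in the Dsg2KO replicates. The highest of these, in A431CT, were only just over the floor of 3 counts, every Dsg2KO library was under it, and a difference was not detectable at this depth. Without the low-count filter their adjusted p-values were 0.576 and 0.404 (edgeR).

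IL1R1 encodes the signaling receptor of IL-1α and IL-1β. Its level was 9.91, 10.6 and 7.83 CPM in the A431CT replicates and 8.79, 9.11 and 8.66 CPM in the Dsg2KO replicates. The Dsg2KO libraries all lay within the range of the A431CT libraries. The log2 fold change was -0.10, with a 95% interval of -0.40 to 0.21 (adjusted p = 0.662, edgeR). It was -0.0019 without A431CT replicate 2 and -0.21 without A431CT replicate 3. IL1R1 is overlapped by the antisense RNA gene IL1R1-AS1. IL1R2, the decoy receptor, had 1 count in A431CT replicate 2 and 0 in the other 5 libraries. A ratio of decoy to signaling receptor was therefore not computed.

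IL1RAP, the accessory chain shared by the receptors of IL-1, IL-33 and IL-36, was at 48.1, 48.2 and 46.7 CPM in the A431CT replicates and 45.8, 49.8 and 47.5 CPM in the Dsg2KO replicates. The Dsg2KO libraries spanned the A431CT libraries on both sides. Its log2 fold change of 0.0022 had a 95% interval of -0.12 to 0.13 (adjusted p = 0.982, edgeR), the narrowest of the 6 tested members, and its sign changed without A431CT replicate 3 or Dsg2KO replicate 2.

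**Figure D2:**
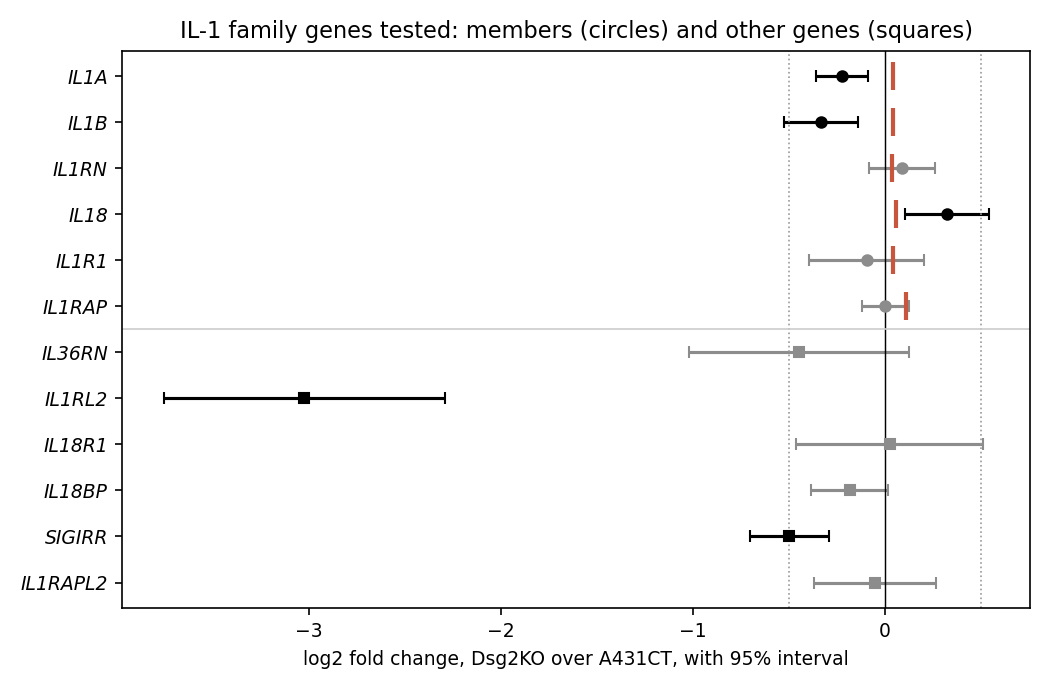
Points give the log2 fold change of each tested IL-1 family gene in Dsg2KO over A431CT cells, with 95% intervals, in black where the adjusted p-value is under 0.05 (edgeR) and in grey otherwise. Circles are the 6 tested members, squares are 6 other family genes, red ticks mark the median of tested genes within 5 Mb of each member, and dotted lines mark 0.5 in either direction. IL1A and IL1B lie below 0 and IL18 above it, all inside the dotted lines, and IL1RL2 stands far to the left at -3.02.

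Levels can be set against each other only per length, and were divided by the length of the Ensembl canonical transcript. In A431CT cells IL1A led with 35.1 ± 3.19 CPM per kilobase, followed by IL18 at 17.3 ± 1.11, IL1B at 14.9 ± 0.983, IL1RN at 11.7 ± 0.540, IL1RAP at 10.0 ± 0.179 and IL1R1 at 1.82 ± 0.279 (SD, n = 3). No 2 neighbours in this order overlapped in A431CT libraries. In Dsg2KO cells IL1RN at 12.4 ± 0.371 CPM per kilobase and IL1B at 11.9 ± 0.955 changed places and overlapped, and the order of the others was the same. With the summed length of all annotated exons in place of the canonical transcript, IL1B (7.47 CPM per kilobase) and IL18 (7.41) could not be ordered in A431CT cells. IL1A was above 80.0% of 12245 tested genes on the canonical scale and IL1R1 was above 15.5%. The agonists were thus counted at levels several times that of the receptor chain that binds them, in both conditions.

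Of the 13 other genes of the family, 6 were tested, and 2 of them passed, both lower in Dsg2KO cells, a share near the 29.6% of all genes tested that passed. The stronger change was that of IL1RL2, the receptor chain for IL-36 cytokines. IL1RL2 had 60, 49 and 67 counts in the A431CT replicates and 4, 9 and 13 counts in the Dsg2KO replicates. Each Dsg2KO library held far fewer counts than the lowest A431CT library, at a greater depth. Its level fell from 4.51 ± 0.811 to 0.541 ± 0.268 CPM (SD, n = 3), so that it fell by 88.0%. On the log2 scale this was -3.02 with a standard error of 0.34 (adjusted p = 1.27e-05, edgeR), with 3 of 3 libraries lower, and it stayed between -3.41 and -2.72 over 12 alternatives, all past the test. Per kilobase it was close to IL1R1 in A431CT cells (1.76 ± 0.316 and 1.82 ± 0.279 CPM) and 0.211 ± 0.104 CPM in Dsg2KO cells. IL1RL2 is the 1 gene of the whole family, members included, that passed the study's minimum of 0.5, which 3.03% of all genes tested passed as lower.

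IL1RL2 lies at chr2:102187006-102240002 on the plus strand, directly after IL1R1 and before the receptors IL1RL1 and IL18R1. The 250 bases before its first RefSeq start (GRCh38.p14, plus strand, chr2:102186723-102186972) are given because the gene changed most in the family. No AP-1, C/EBP, NF-κB or ISRE match was found in these bases, so nothing is in capitals.
IL1RL2: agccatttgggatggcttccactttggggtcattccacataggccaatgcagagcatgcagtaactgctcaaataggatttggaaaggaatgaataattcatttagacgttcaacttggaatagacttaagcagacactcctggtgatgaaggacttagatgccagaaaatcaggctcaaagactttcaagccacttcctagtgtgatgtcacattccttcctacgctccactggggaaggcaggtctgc

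SIGIRR encodes a single-domain member of the receptor family that dampens IL-1 receptor signaling. It had 237, 241 and 251 counts in the A431CT and 209, 214 and 201 counts in the Dsg2KO replicates, which were sequenced more deeply. Its level fell from 18.6 ± 0.845 to 13.2 ± 0.802 CPM (SD, n = 3), with no overlap. Its log2 fold change of -0.499, with a standard error of 0.10 (adjusted p = 0.0012, edgeR), lay just inside the minimum of 0.5, and the fall passed the test under 13 of 13 alternatives. It reached the minimum without A431CT replicate 2 (-0.53) or Dsg2KO replicate 1 (-0.54), where IL1RL2 and SIGIRR both passed it.

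Other genes of the family gave smaller or no detectable differences. IL36RN, the antagonist of the IL-36 receptor, had 32, 49 and 30 counts in A431CT and 35, 31 and 32 in Dsg2KO replicates, with a log2 fold change of -0.45 and a 95% interval of -1.02 to 0.13, and the value was -0.22 without A431CT replicate 2. IL18BP, the secreted inhibitor of IL-18, had 270 to 311 counts in A431CT and 298 to 312 in Dsg2KO libraries (log2 fold change -0.18, adjusted p = 0.164, edgeR). IL18R1, a chain of the IL-18 receptor, had 37 to 48 and 45 to 58 counts (log2 fold change 0.02), while its partner IL18RAP had at most 1 count in any library. IL1RAPL2 had 94 to 123 counts in A431CT and 106 to 138 in Dsg2KO libraries (log2 fold change -0.05). IL1RAPL1 had 1, 12 and 5 counts in A431CT and 2, 6 and 2 in Dsg2KO replicates. IL1F10 had 1 to 4 counts in A431CT and 1 to 5 in Dsg2KO libraries, and IL36A had 0 in every A431CT library and 1, 2 and 4 in the Dsg2KO replicates. IL36B and IL37 stayed at or under 3 counts and IL1RL1 had none.

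**Figure D3:**
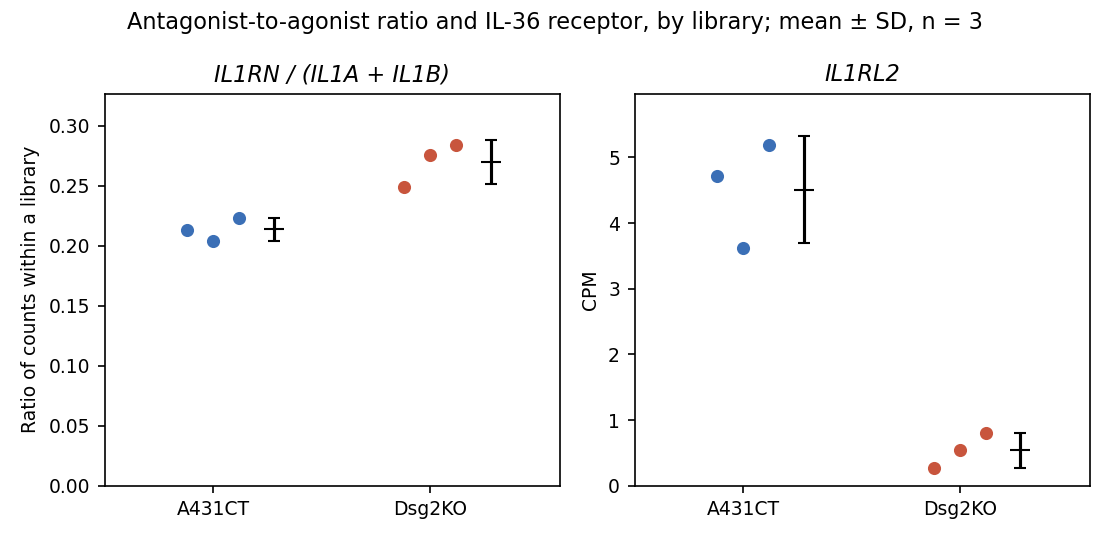
The left panel plots the ratio of IL1RN counts to IL1A plus IL1B counts in each library and the right panel the level of IL1RL2 in CPM, both from 0, with the mean and SD (n = 3) beside the points. The Dsg2KO ratios (0.249 to 0.284) lie above the A431CT ratios (0.204 to 0.223), and IL1RL2 lies between 0.268 and 0.804 CPM in Dsg2KO and between 3.61 and 5.19 CPM in A431CT libraries.

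Chromosome position was compared because most of the family sits in 2 clusters of chromosome 2. Between the start of IL1R2 and the end of IL1RN (chr2:101991960-113134016) 37 genes that are not members were tested. The family genes IL1RL2, IL18R1 and IL36RN were among these 37. Their median was 0.02 on the log2 scale, which was the value of IL18R1. Past the test 5 of them rose and 2 fell, and those that fell were IL1RL2 (-3.02) and MFSD9 (-0.33). Within 5 Mb of IL1A the median of 33 tested genes was 0.04, with 5 higher and 1 lower, which was IL1B. Around IL1B the median was 0.04 over 34 genes, with 6 higher and 1 lower, which was IL1A. IL1A and IL1B, at -0.22 and -0.33, thus lay on the other side of 0 from the median of their neighbours. Around IL18 the median of 36 genes was 0.06 and around IL1RAP that of 32 genes was 0.11. Of the genes next to IL1RL2, IL1R1 and IL18R1 had log2 fold changes of -0.10 and 0.02.

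**Figure D4:**
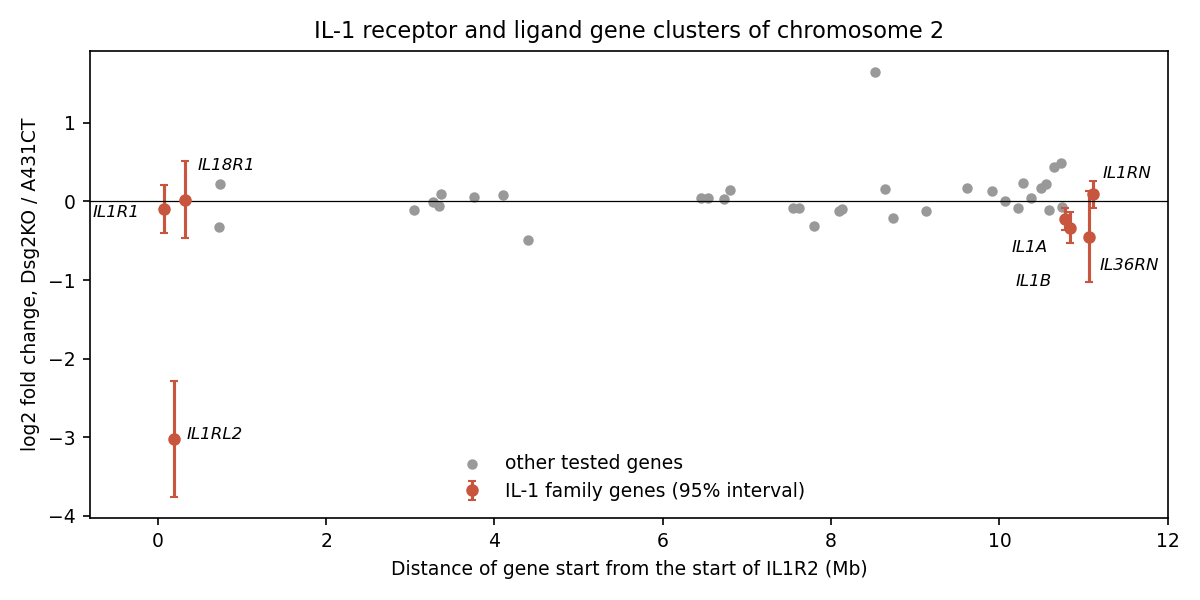
The log2 fold change in Dsg2KO over A431CT cells is plotted for all tested genes between IL1R2 and IL1RN against the distance of each gene's start from the start of IL1R2, in Mb. IL-1 family genes are in red with 95% intervals and other genes in grey. IL1RL2 at -3.02 lies far below IL1R1 and IL18R1 beside it, and IL1A and IL1B lie below most of their neighbours.

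Of 25 genes that carry the signal of the IL-1 receptor 23 were tested. By the adjusted p-value, 1 gene was higher, 6 were lower and 16 did not pass. Both directions together, this share of calls was near the 29.6% of all genes tested, where 14.3% were higher and 15.3% lower. The list's median was -0.03 on the log2 scale. The lower ones with the smallest p-values were UBE2N, a ubiquitin-conjugating enzyme that works with TRAF6 (-0.30, standard error 0.04), MAP3K7, which encodes the kinase TAK1 (-0.24), and NFKBIA, which encodes the NF-κB inhibitor IκBα and is itself an NF-κB target (-0.21). The higher gene was PELI1, a ubiquitin ligase acting on IRAK kinases (0.35), which is named after its value was seen. MYD88, IRAK1 and TRAF6 had log2 fold changes of 0.11, 0.05 and -0.0079 and did not pass, and they too are named after their values were seen. With the minimum of 0.5 added 0 of the 23 passed, against 6.03% of all genes tested. Without the minimum 7 passed in edgeR and 6 in DESeq2. The number passing was 4 without A431CT replicate 1 and 3 without Dsg2KO replicate 2.

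Of 31 genes for processing and release of the cytokines 24 were tested, of which 1 was higher, 3 were lower and 20 did not pass, where 14.3% of all genes tested were higher and 15.3% lower, and the list's median was -0.07 on the log2 scale. CAPN2, a calpain subunit of the protease family that cuts the IL-1α precursor, rose by 0.19 on the log2 scale (standard error 0.04). NLRP1, the main inflammasome sensor of human keratinocytes, changed by -0.33 on the log2 scale with a standard error of 0.07, and its level fell from 53.8 ± 4.40 to 42.9 ± 1.63 CPM (SD, n = 3). NLRP10 had the largest change of the list past the test at -1.32 (standard error 0.44), at a level of only 1.28 CPM in A431CT and 0.511 CPM in Dsg2KO cells, and passed under 5 of the 11 alternatives that gave an adjusted p-value. GSDME, a pore-forming gasdermin named after its value was seen, was the third at -0.32 and passed under 7 of 13. Without A431CT replicate 3 it was -0.16 (adjusted p = 0.235, edgeR). CASP1, which cuts the precursors of IL-1β and IL-18 and is also named after its value was seen, was at -0.08 on the log2 scale (adjusted p = 0.579, edgeR). Leaving out Dsg2KO replicate 2 or 3, or the third A431CT library, left 2 genes of this list past the test, and leaving out the second A431CT library gave 6.

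Of 40 genes known to respond to IL-1, 22 were tested, of which 8 were higher, 2 were lower and 12 did not pass, against the same 14.3% higher and 15.3% lower of all genes, and the list's median was 0.13 on the log2 scale. PTGES, which encodes the inducible prostaglandin E synthase, rose from 22.9 ± 2.87 to 40.5 ± 1.93 CPM (SD, n = 3), a log2 fold change of 0.82 (standard error 0.09). PTGES was the 1 gene of the list past the minimum of 0.5, against 6.03% of all genes tested in either direction. IER3 rose by 0.39 and CSF1, the macrophage growth factor, by 0.21 on the log2 scale. LIF, a cytokine of the IL-6 family, rose from 26.7 ± 0.418 to 34.2 ± 1.39 CPM (SD, n = 3). The 2 lower genes were ZC3H12A (-0.39, standard error 0.07) and TNIP1 (-0.24, standard error 0.07). ZC3H12A passed under 13 of 13 alternatives and TNIP1 under 9 of 13. Among the chemokines of the list CXCL1 had 69 to 84 counts (log2 fold change -0.31, adjusted p = 0.208, edgeR). CXCL2 had 9 to 21 counts (-0.60, adjusted p = 0.293, edgeR). CXCL3 went the other way, with 9 to 22 counts (0.51, adjusted p = 0.346, edgeR). CXCL8 had at most 17, and CXCL5, CXCL6, CCL2 and CCL20 had none in any library. IL6 had at most 9 counts. LIF, ZC3H12A, TNIP1, IL6 and these chemokines are named after their values were seen. Several genes of this list are also NF-κB targets, and the list is general rather than specific to IL-1.

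**Figure D5:**
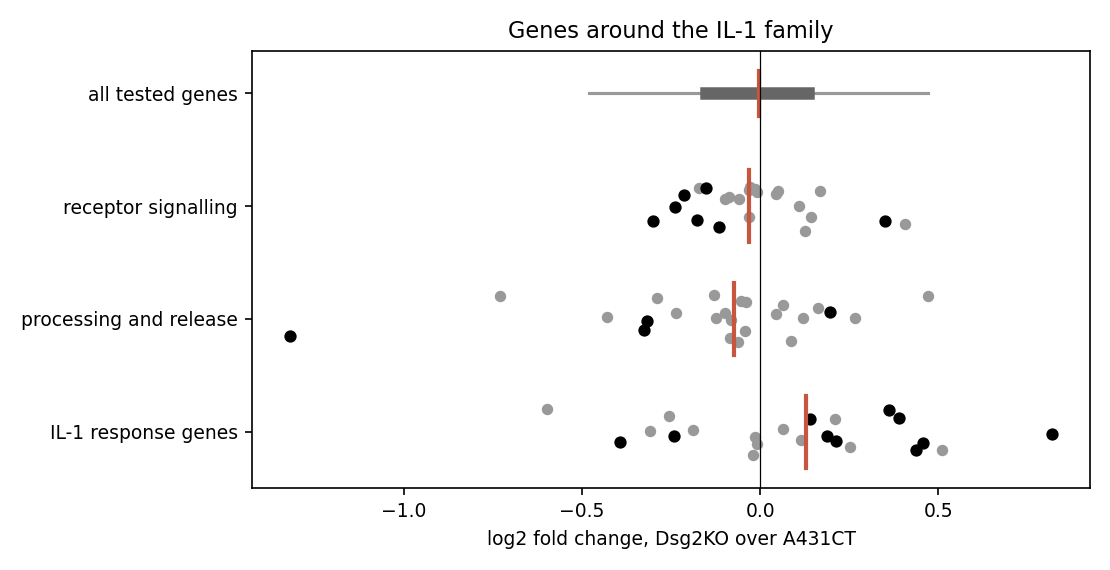
Points give the log2 fold change of each tested gene in Dsg2KO over A431CT cells for the 3 lists, in black where the adjusted p-value is under 0.05 (edgeR), with a red line at the list's median; vertical scatter within a row only separates points. The top row shows all tested genes, with a thin line from the 5th to the 95th percentile (-0.48 to 0.47), a thick line for the middle quartiles and a red line at the median.

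The genes whose pattern over the 6 libraries was nearest to that of the strongest member in each direction were found by the root mean square difference of log2 CPM, each gene centred on its own mean. Nearest to IL1B were TSPAN1, ARHGEF16 and SESN1, at differences of 0.0187, 0.0280 and 0.0334 and with log2 fold changes of -0.35, -0.33 and -0.32. Nearest to IL18 were SLC37A4, DEF8 and PEX19, at differences of 0.0388, 0.0468 and 0.0502 and with log2 fold changes of 0.31, 0.33 and 0.35. These are descriptions over 6 libraries that share the same contrast.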

How the data were processed

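Reads of polyA RNA were cleaned, aligned to GRCh38 and assigned to genes by the authors with CLC Genomics Workbench. The deposited values used here are raw counts per gene. Its annotation and strand setting are not given in the sources used here. All 6 columns were mapped to a condition and replicate.

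The table was fitted whole with edgeR 4.0.16 in R 4.3.3: filterByExpr (minimum count 10, minimum total 15), TMM factors, the quasi-likelihood F test without covariates, and Benjamini-Hochberg adjustment over 12857 genes. Intervals and standard errors come from that fit. CPM are TMM-scaled, with a prior count of 2 for log2 CPM. The alternatives tried were dropping the low-count filter, requiring 10 counts in each library, RLE factors, total counts, DESeq2 1.42.0, the likelihood ratio test, a replicate block and each library left out. They were extended to genes outside the members after seeing the data.

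GENCODE version 44 placed 19478 of 21462 symbols. Promoters of 11 of 12 family genes looked up were in the RefSeq table. Figures used matplotlib 3.10.9.

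The members and lists were chosen with earlier results of these data known. Named are the 9 members, DSG2, family genes over 3 counts, the genes of each list past adjusted p 0.05 and log2 fold change 0.5 (at least the 3 of smallest p), and the 3 genes nearest in pattern to the strongest member in each direction. Other genes, the cell type markers included, were named after their values were seen. Genes of the lists that are not in the table used were not analysed here. No library pair within a condition looked like a repeat deposit (chi-square per degree of freedom 2.64 to 4.14).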

Additional observations from a re-analysis of the deposited data

How the results depend on the processing

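Under the 7 alternatives that kept all 6 libraries, 3 members passed each time and 0 passed the minimum of 0.5. With 1 library left out, 0 to 3 members passed (0 without A431CT replicate 2), 0 passed the minimum, 3 to 6 of the receptor signalling genes, 2 to 6 of the processing and release genes, and 8 to 11 of the response genes passed. DESeq2 gave 2 processing and release genes in place of 4, with no adjusted p-value for NLRP10 and fewer genes called in all (3109 against 3802); the cause was not tested. Signs changed only for values near 0 among the results recomputed, with 1 library left out: IL1RAP ranged from -0.0283 (without Dsg2KO replicate 2) to 0.0313 and was -0.0124 without A431CT replicate 3, IL18R1 ranged from -0.0667 (without Dsg2KO replicate 2) to 0.13 and was below 0 without A431CT replicate 1 or 3 as well, and IL1RAPL2 ranged from -0.118 to 0.0512 (without A431CT replicate 2) and was above 0 without Dsg2KO replicate 1 as well. The log2 antagonist-to-agonist ratio difference was 0.30 to 0.39 with 1 library left out and 0.34 per kilobase.

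Replicate numbers are shared between the conditions. Same-numbered libraries did not deviate together (correlations of -0.0027, 0.01 and 0.05), and 2 of 6 libraries correlated best with their own number. Whether same-numbered libraries shared a culture day or a batch cannot be told from these values. With a replicate block 3 members passed, and 6, 4 and 11 genes of the 3 lists in place of 7, 4 and 10. The ratio of IL1R2 to IL1R1 had no value under any setting, since IL1R2 was under the floor. Counts near the floor limit IL33, IL36G, IL1R2 and the IL-36 ligands.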
